A study of Mus musculus with 68 samples.

Results

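The second pharyngeal arch (PA2) of mouse embryos labelled Hoxa2-/- was compared between embryonic days E9.5 and E10.0, with 5 libraries at each stage, 10 of the 68 libraries in the series. Members were taken by the labels of arch, genotype and stage alone, and no measured value entered the choice. The series holds PA1 and PA2 of wildtype and Hoxa2-/- embryos from E9.0 to E10.5, from a CBA/Ca/J x C57BL/10 background, and each library is polyA RNA of 1 hand-dissected arch, amplified as cDNA. Both groups used here carry the same genotype label, so the comparison is one of stage within that label. The deposited design text gives PA1 and PA2 as collected from a single embryo. Each replicate number within a genotype and stage is read here as 1 embryo. The E9.5 and E10.0 embryos are different animals.

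The pharyngeal arches are bulges beside the embryonic pharynx in which cranial neural crest mesenchyme surrounds a mesoderm core and is lined by surface ectoderm outside and pouch endoderm inside. PA2 forms the stapes, the styloid process and part of the hyoid, and Hoxa2, a homeobox gene kept on in PA2 crest and off in PA1, is needed for that identity. In embryos without Hoxa2, PA2 crest forms a mirror-image set of PA1 elements. Over the stages compared, crest migration into the arches ends and the mesenchyme is patterned along its dorsal-ventral axis by endothelin, Dlx and other signals.

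The promoters of 4 genes are shown because their transcripts mark the turn described below: Hmx1 and Bcl11a came on between the stages and the neighbouring genes Fgf3 and Fgf4 went down. Each run is the 250 bases before the RefSeq start on build GRCm38.p6, on the gene's own strand, at chr5:35388611-35388860 for Hmx1, chr11:24080445-24080694 for Bcl11a, chr7:144838362-144838611 for Fgf3 and chr7:144861136-144861385 for Fgf4, all on the plus strand. Capitals mark every match, on either strand, to 3 searched motifs: the GC box GGGCGG, then the CAAT box, whose letters are CCAAT, and the TATA box, whose letters are TATAAA.
Hmx1 promoter: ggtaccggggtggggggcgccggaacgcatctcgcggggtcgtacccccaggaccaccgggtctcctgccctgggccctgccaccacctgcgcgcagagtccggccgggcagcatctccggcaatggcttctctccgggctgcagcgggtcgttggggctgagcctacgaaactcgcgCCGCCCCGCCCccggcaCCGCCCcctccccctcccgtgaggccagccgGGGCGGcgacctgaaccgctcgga
Bcl11a promoter: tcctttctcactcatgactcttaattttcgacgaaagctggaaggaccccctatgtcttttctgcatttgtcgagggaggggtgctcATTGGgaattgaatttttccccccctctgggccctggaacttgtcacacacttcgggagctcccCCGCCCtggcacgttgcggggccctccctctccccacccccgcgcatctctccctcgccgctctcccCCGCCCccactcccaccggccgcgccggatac
Fgf3 promoter: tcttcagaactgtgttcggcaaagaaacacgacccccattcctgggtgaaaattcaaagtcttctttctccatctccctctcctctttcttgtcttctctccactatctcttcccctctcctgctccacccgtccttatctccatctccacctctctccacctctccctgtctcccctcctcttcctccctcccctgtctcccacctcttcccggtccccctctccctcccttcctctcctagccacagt
Fgf4 promoter: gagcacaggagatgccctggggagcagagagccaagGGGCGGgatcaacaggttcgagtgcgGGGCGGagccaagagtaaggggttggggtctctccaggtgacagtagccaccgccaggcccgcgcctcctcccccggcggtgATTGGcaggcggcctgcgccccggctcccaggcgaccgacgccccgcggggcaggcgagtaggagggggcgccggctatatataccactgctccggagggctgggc
The Hmx1 run held 4 matches to GGGCGG, the Bcl11a run 2 and the Fgf4 run 2, and the Bcl11a and Fgf4 runs each held 1 CCAAT. The Fgf3 run held no match to the 3 motifs. None of the 4 runs held TATAAA.

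Hoxa2 itself, the targeted gene, was read in every library first. In PA2 at E9.5 its level was 48.9, 48.6, 53.5, 102 and 50.6 CPM, which are read counts scaled for library size and for a normalisation factor of each library, in replicates 1 to 5, and at E10.0 it was 88.2, 113, 111, 88.8 and 87.2 CPM. PA2 labelled wildtype read 33.0 to 49.2 CPM at E9.5 and 42.7 to 53.7 CPM at E10.0. Hoxa2 reads were therefore not lower in the PA2 libraries labelled Hoxa2-/- than in those labelled wildtype. The sources used here do not say which part of the gene the allele removes, so the read level cannot check the genotype label. The difference between the labels was not tested here. PA1 of the same embryos read 0.237 to 0.457 CPM at E9.5 and 0.190 to 0.628 CPM at E10.0, far under every PA2 library. The genotype is given as labelled throughout and no direction is drawn from it. Of the markers of arch mesenchyme, Prrx1, Prrx2, Twist1, Msx1 and Dlx5 were at 29.9 CPM or higher in all 10 libraries, Alx4 at 6.14 CPM or higher and Hand2 at 1.59 CPM or higher.

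Sequencing depth was 12226679 to 14732948 reads per library, so 3 reads correspond to between 0.203 and 0.245 CPM. Female embryos were 4 of 5 at E9.5 and 2 of 5 at E10.0, as read from the levels of X-linked and Y-linked transcripts. One library stood apart from its stage. On the first principal component of the 10 libraries, which held 37.9% of the variance, E9.5 replicate 4 lay at 20.7, among the E10.0 libraries (8.69 to 27.97), while the other E9.5 libraries lay between -32.7 and -22.8. On a scale where 0 is the E9.5 mean and 1 the E10.0 mean of genes called without the library in question, E9.5 replicate 4 was at 0.999 in PA2 and the PA1 library of that embryo at 0.850. It was nearer to the E10.0 mean in 1537 of 1756 genes (87.5%) in PA2. Its label is kept, and the counts of genes called in the comparison of the stages are given with and without it.

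**Figure D1:**
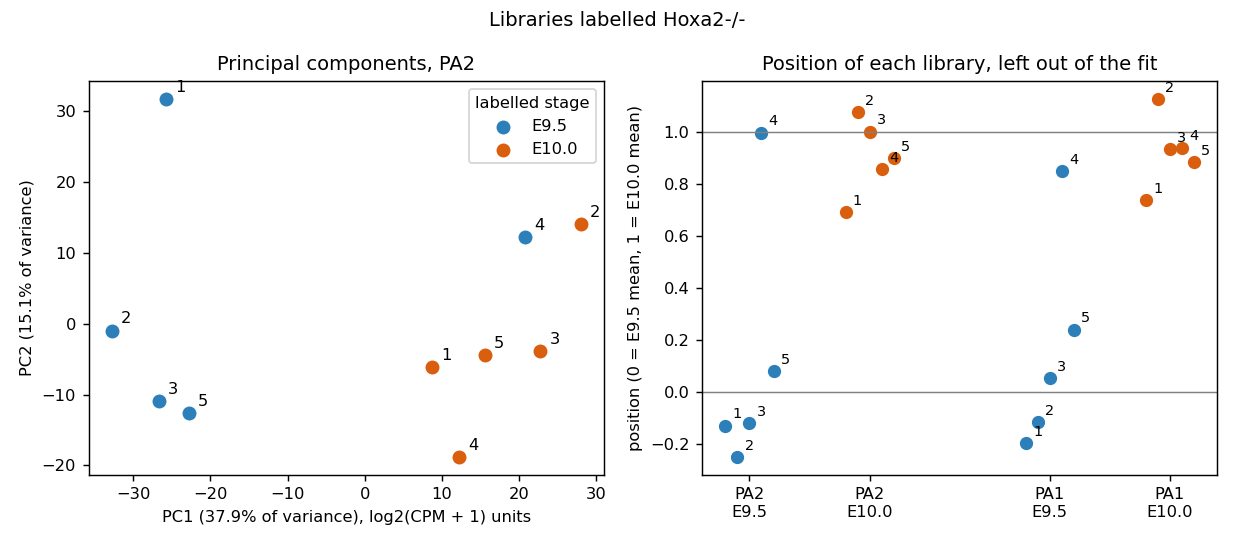
Left, the 10 PA2 libraries labelled Hoxa2-/- on the first and second principal components of log2(CPM + 1), numbered by replicate. Right, the position of each PA2 and PA1 library between the E9.5 mean (0) and the E10.0 mean (1) over genes called without that library; replicate 4 of E9.5 sits at 0.999 in PA2 and 0.850 in PA1, and the other E9.5 PA2 libraries between -0.251 and 0.079.

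From E9.5 to E10.0, 843 of 18428 genes tested passed an adjusted p of 0.05 (4.57%), of which 321 rose (1.74%) and 522 fell (2.83%). Without E9.5 replicate 4 the calls were 1756 (9.53%), 681 that rose (3.7%) and 1075 that fell (5.83%). Counts in the gene lists below are to be read beside these shares of all genes tested, which also grew without that library. Of the 843 genes, 835 were called in both fits, all in the same direction, which is 99.1% of the first set and 47.6% of the second. The test was limma's moderated test on log2(CPM + 1) with Benjamini-Hochberg adjustment, and a difference below is E10.0 minus E9.5 on that scale, which understates the change of genes near 0. The median gene that rose did so by 0.63 and the median gene that fell did so by -0.64, and 76 rising and 82 falling genes moved by more than 1 (119 and 213 without E9.5 replicate 4). In 656 genes (3.56%) the 2 stages did not overlap, against 2354 (12.8%) without E9.5 replicate 4. The spread was pooled over all 68 libraries; with the 2 groups alone 141 genes passed, and without E9.5 replicate 4 in that fit 1983 did. Of 99 named genes that passed, 21 also passed with the 2 groups alone and 98 with the 2 groups without that library. Leaving out 1 other library at a time gave 407 calls without E9.5 replicate 1, 405 without replicate 2 and 546 without replicate 3, and 454 without E10.0 replicate 2. Of the 99 named genes, 60 passed without E9.5 replicate 1, 63 without replicate 2, 68 without E10.0 replicate 2 and 75 or more without any other single library. With log2(CPM + 0.25) 93 of them passed, and with log2(CPM + 5) 95 did. In bulk arches, fewer cells of a type and less RNA per cell cannot be told apart.

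The largest rise among the named genes was in Hmx1 (ENSMUSG00000067438, chr5:35389108-35399730), a homeobox gene of craniofacial mesenchyme and ganglia. Its level was 0, 0.0817, 0.0726, 8.84 and 0.208 CPM at E9.5 and 12, 18.1, 13.1, 8.61 and 14.7 CPM at E10.0. E9.5 replicate 4 alone overlapped E10.0, and the other E9.5 libraries were at or under the level of 3 reads. The difference was 3.04 (SE 0.321, adjusted p = 4.39e-09), and 3.68 without that library (adjusted p = 2.87e-18). In PA1 of the same embryos Hmx1 reached 1.46 CPM at most. The rise was larger in PA2 than in PA1 by 2.53 (adjusted p = 0.00329) and by 3.02 without embryo 4 of E9.5 (adjusted p = 6.67e-09).

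The distal-less homeobox genes, which set dorsal-ventral position in arch mesenchyme, rose in part. Of 8 listed Dlx genes and antisense transcripts, Dlx3, Dlx4 and Dlx6os1 rose, 0 fell and 5 did not pass, with and without E9.5 replicate 4, with a median of 0.30 beside 0.01 for all genes. Dlx3 read 21.0, 31.4, 25.8, 108 and 22.4 CPM at E9.5 and 85.5, 102, 112, 69.4 and 77.7 CPM at E10.0. Dlx4, next to it on chromosome 11, read 0.896, 1.06, 0.871, 13 and 0.903 CPM and then 10.4, 10.7, 9.14, 7.65 and 8.55 CPM. In both genes E9.5 replicate 4 was at the E10.0 level and the other E9.5 libraries lay below every E10.0 library. Dlx3 rose by 1.37 (adjusted p = 0.00276; 1.78 without replicate 4) and Dlx4 by 1.83 (adjusted p = 0.000148; 2.40 without it). Dlx4os, an antisense transcript outside the list that overlaps Dlx4, rose by 2.97 (adjusted p = 2.34e-06). The counting strand is not given in the sources used here, so reads of Dlx4 and Dlx4os cannot be told apart. Dlx6os1, an antisense transcript that overlaps Dlx6, rose by 1.5 (adjusted p = 0.00819; 0.0633 without E9.5 replicate 1), while Dlx5 had a difference of 0.20 and Dlx6 of 0.22, neither past the test.

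Of 16 endothelin and Hand genes, Edn1 and Mef2c fell, Barx1 and Gsc rose and 12 did not pass, and 3 rose and 2 fell without E9.5 replicate 4. Edn1, the ligand made by arch epithelium and core mesoderm, read 39.6, 42, 32.7, 19 and 32.6 CPM at E9.5 and 21.5, 10.8, 14, 10.0 and 17.2 CPM at E10.0, and fell by -1.13 (adjusted p = 0.00137). Only E9.5 replicate 4 overlapped the later stage. Mef2c, a transcription factor of muscle, endothelium and crest, fell by -1.34 (adjusted p = 0.00165). Barx1, a homeobox gene of proximal arch mesenchyme, read 15.6, 34.8, 46.3, 228 and 42.6 CPM and then 177, 198, 219, 161 and 188 CPM. The E9.5 replicate 4 value was the highest of the 10 libraries. Barx1 rose by 1.95 (adjusted p = 0.0103) and by 2.5 without that library (adjusted p = 0.000154), but edgeR's quasi-likelihood test on the recovered reads gave adjusted p = 0.0734 with all libraries. Gsc, a homeobox gene of the lower jaw, was at 1.29 CPM or less at E9.5 and 2.18 to 2.94 CPM at E10.0, with no overlap, and rose by 1.38 (adjusted p = 0.000516). The receptor Ednra (-0.23) and the target Hand2 (0.65) did not pass.

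**Figure D2:**
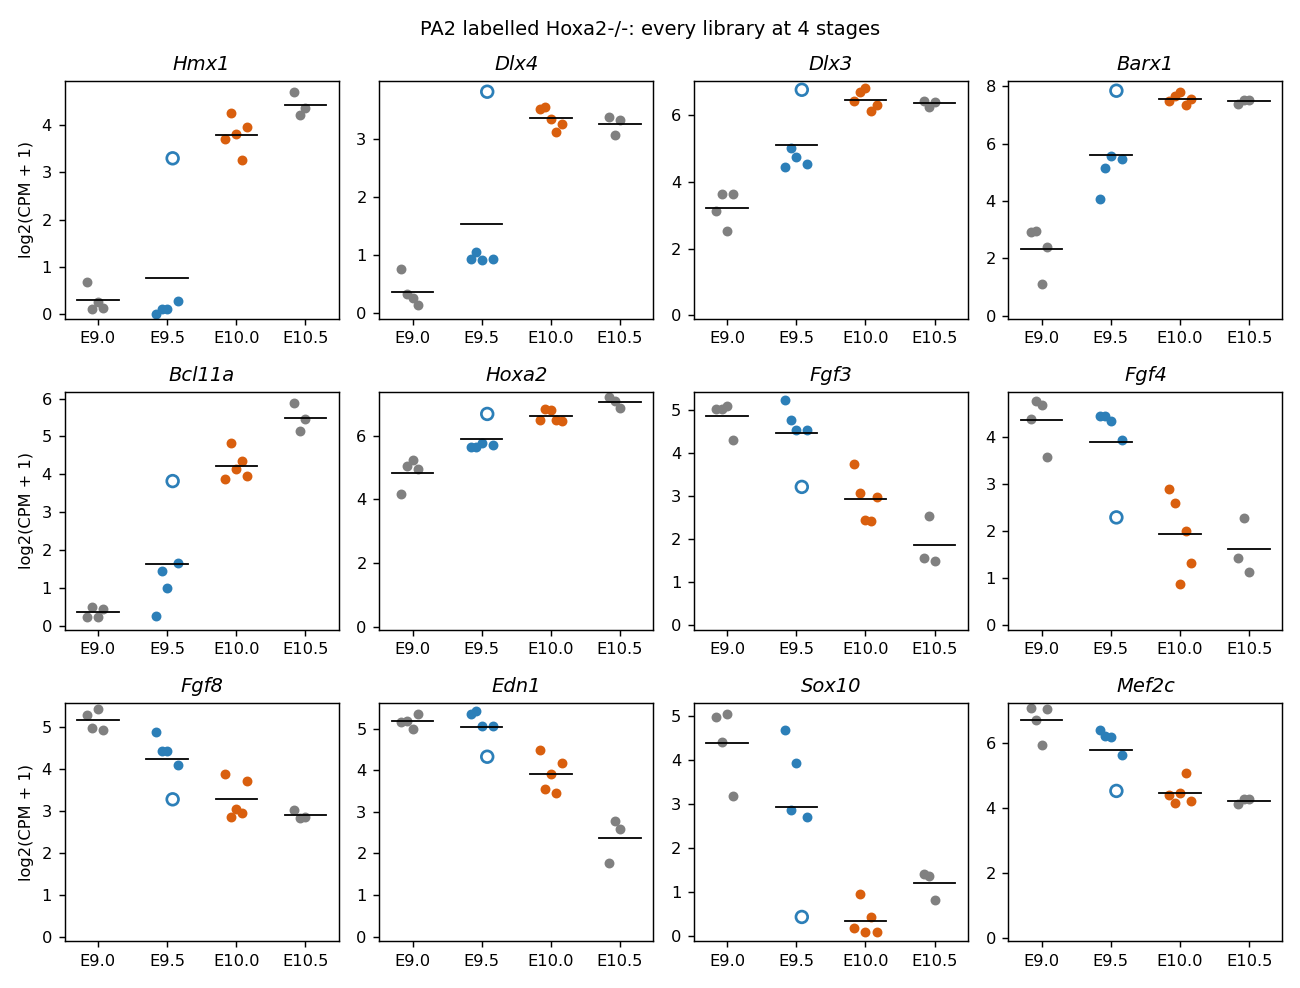
Each point is 1 PA2 library labelled Hoxa2-/- at E9.0 (4), E9.5 (5), E10.0 (5) or E10.5 (3), as log2(CPM + 1), with the group mean as a bar; the open circle is E9.5 replicate 4. In all 12 genes shown the open circle lies away from the other E9.5 libraries on the side of E10.0, and for Hmx1 it is at 8.84 CPM against 0.208 CPM or less.

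Transcription factors whose transcripts come on late in the arches formed the list with the largest share of rises. Of 11 tested, 5 rose and 0 fell in both fits, with a median of 0.67, or 0.89 without E9.5 replicate 4. Bcl11a, a zinc finger repressor, read 0.207, 1.72, 1.02, 13.1 and 2.15 CPM at E9.5 and 13.7, 27.3, 16.8, 19.3 and 14.4 CPM at E10.0. Its paralog Bcl11b read 1.03, 1.23, 2.54, 10.9 and 2.22 CPM and then 13.3, 22.8, 12.3, 12.9 and 11.6 CPM. For both paralogs the stages did not overlap, with E9.5 replicate 4 just under the lowest E10.0 library. Bcl11a rose by 2.59 (adjusted p = 6.19e-05) and Bcl11b by 2.07 (adjusted p = 0.000129). Nfib rose by 1.05 (adjusted p = 0.00471) and Zfhx4 by 1.02 (adjusted p = 0.000895). Nfib was higher at E10.0 (19.8 to 26.7 CPM) than in every E9.5 library (6.34 to 13.8 CPM), E9.5 replicate 4 included. The list was drawn up with results of these libraries known, so its direction is not independent evidence.

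A few mesenchymal and skeletal genes rose too. Twist2, a bHLH factor of mesenchyme, read 1.79, 2.21, 2.90, 13.1 and 2.29 CPM at E9.5 and 13.2, 16.3, 15.5, 12.2 and 13.4 CPM at E10.0, a rise of 1.78 (adjusted p = 1e-05). E9.5 replicate 4 fell within the E10.0 range. Prrx1, a homeobox gene of limb and arch mesenchyme, rose by 0.79 (adjusted p = 0.00813), while Twist1 (-0.01), Prrx2 (-0.25) and Alx4 (-0.16) did not pass. Of 17 ectomesenchyme genes 2 rose and 1 fell, and 3 rose and 2 fell without E9.5 replicate 4. Over all genes tested 1.74% rose and 2.83% fell, and 3.7% and 5.83% without that library. Among 11 skeletal fate and cartilage genes 3 rose and 0 fell, with and without E9.5 replicate 4. Only 1 rose without E9.5 replicate 1 or 2 or E10.0 replicate 2. Col9a1, a cartilage collagen, read 60.7, 55.6, 70.8, 151 and 75.8 CPM and then 193, 214, 216, 212 and 186 CPM, so every E10.0 library was above every E9.5 library, and it rose by 1.39 (adjusted p = 1.06e-05). Sox9 (0.15), the master factor of cartilage, Runx2 (-0.07) and Col2a1 (0.31) did not pass. Among other matrix genes, Col8a2 rose by 2.31 (adjusted p = 0.000197), the collagen receptor Ddr2 by 1.53 (adjusted p = 0.00067) and the fibrillar collagen Col3a1 by 1.20 (adjusted p = 0.0371).

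Gas1, a membrane co-receptor for hedgehog ligands, had clearly separated stages. Its level was 91.9, 120, 121, 193 and 132 CPM at E9.5 and 268, 286, 308, 239 and 239 CPM at E10.0. No E9.5 library reached the lowest E10.0 library, and the difference was 1.06 (SE 0.123, adjusted p = 6.5e-08). Foxf1, a forkhead target of hedgehog signalling, rose by 1.48 (adjusted p = 0.0163). The ligand Shh (-0.19), the receptor Ptch1 (-0.12) and the effector Gli3 (-0.03) did not pass, and 2 of the 14 hedgehog genes rose (3 without E9.5 replicate 4). Of 29 Wnt genes 2 rose, the ligand Wnt7b by 0.98 (adjusted p = 0.0169) and the feedback gene Axin2 by 0.68 (adjusted p = 0.0158), and without E9.5 replicate 4 the list had 6 rises and 2 falls. The Wnt list had 0 rises without E9.5 replicate 1 or 2 and 1 rise without E10.0 replicate 2. Kremen2, a receptor for Dkk inhibitors of Wnt signalling, rose by 1.74 (adjusted p = 1e-05).

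Hoxa2 rose by 0.73 (SE 0.158, adjusted p = 0.00248) and by 0.93 without E9.5 replicate 4 (adjusted p = 1.05e-05). With log2(CPM + 0.25) in place of log2(CPM + 1), its difference of 0.74 did not pass limma's test (adjusted p = 0.101). Hoxaas2, the neighbouring transcript on the opposite strand, read 7.31, 10.8, 12.9, 19.5 and 9.93 CPM and then 21.6, 25.8, 26.7, 19.1 and 18.7 CPM, and rose by 0.89 (adjusted p = 6.19e-05). E9.5 replicate 4 lay inside the E10.0 range for both. Of the other Hox genes tested, Hoxa3 (0.04) and Hoxb2 (-0.13) did not pass, and Hoxb3os fell by -0.50 (adjusted p = 0.00493). Among TALE homeobox cofactors, which bind DNA with Hox proteins, Meis1 rose by 0.47 (adjusted p = 0.03) and Pbx3 by 0.33 (adjusted p = 0.00699), and Meis2 had a difference of -0.04. These were 2 rises of 9 TALE genes, with 3 without E9.5 replicate 4 and 0 without E9.5 replicate 1. Leaving out E9.5 replicate 2 or 5 or E10.0 replicate 1, 2 or 3 gave 1 rise. Among imprinted genes 4 of 22 rose and 1 fell (4 and 3 without E9.5 replicate 4): Magel2, a ubiquitin ligase regulator, rose by 2.32 (adjusted p = 0.000197), Gnas by 0.97 (adjusted p = 0.00141), Dlk1 by 0.80 (adjusted p = 0.0191), Ndn by 0.61 (adjusted p = 0.00131), and Phlda2 fell by -1.26 (adjusted p = 0.00444).

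Every fibroblast growth factor (FGF) gene of the list that passed the test fell. Of 19 ligands, receptors and feedback genes tested, 10 fell and 0 rose, also without E9.5 replicate 4, with a median of -0.47 (-0.55 without it). The falls were 5 without E9.5 replicate 1 and 6 without replicate 2 or 3. Among the ligands, Fgf3 read 36.7, 26.6, 22.2, 8.33 and 22.3 CPM at E9.5 and 12.4, 7.42, 4.46, 4.41 and 6.92 CPM at E10.0, and fell by -1.53 (adjusted p = 0.000163). Fgf4, a ligand outside the list, read 20.8, 20.8, 19.2, 3.88 and 14.2 CPM and then 6.39, 5.02, 0.831, 3.02 and 1.49 CPM, and fell by -1.95 (adjusted p = 1.58e-05). Both lie next to each other on chromosome 7, and in both E9.5 replicate 4 alone overlapped E10.0. Fgf8, the main signal of arch epithelium to crest, read 28.7, 20.7, 20.6, 8.69 and 16.2 CPM and then 13.8, 6.26, 7.33, 6.69 and 12.1 CPM. Fgf8 fell by -0.94 (adjusted p = 0.00117), Fgf15 by -1.12 (adjusted p = 0.00326), Fgf10 by -0.52 (adjusted p = 0.0362) and Fgf18 by -0.52 (adjusted p = 0.0163). None of the receptors Fgfr1 (0.04), Fgfr2 (0.40) and Fgfr3 (0.01) passed. Of the targets and feedback inhibitors, Spry4 fell by -0.83, Spry1 by -0.80, Etv5 by -0.71, Spry2 by -0.68 and Dusp6 by -0.41, with adjusted p between 0.00596 and 0.0228, while Etv4 had a difference of -0.17. In PA1 of the same embryos 2 genes of the list rose and 0 fell.

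Pouch endoderm genes fell in the same libraries. Of 16 tested, 8 fell and 0 rose, 12 fell without E9.5 replicate 4 and 5 without replicate 1; 3 of the 8 are the ligands Fgf3, Fgf8 and Fgf15 named above. Tbx1, a T-box gene of pouches and core mesoderm, read 75.6, 48.5, 45.9, 38.9 and 34.5 CPM and then 32.4, 20.5, 25.8, 16.7 and 23.6 CPM. Every E10.0 library lay under every E9.5 library, and Tbx1 fell by -0.98 (adjusted p = 0.00838). Nkx2-6 fell by -0.97 (adjusted p = 0.0332) and Nkx2-3 by -0.68 (adjusted p = 0.03), and the epithelial genes Epcam by -0.68 (adjusted p = 0.000244) and Cldn6 by -0.60 (adjusted p = 0.00264). With log2(CPM + 0.25) the difference of Nkx2-6, -0.99, did not pass limma's test (adjusted p = 0.159). The endoderm factors Foxa1 (0.17) and Foxa2 (0.25) and the ligand Shh (-0.19) did not pass. The summed level of the pouch list was 748, 750, 602, 412 and 695 CPM at E9.5 and 499, 341, 309, 350 and 452 CPM at E10.0. Of 16 surface ectoderm and keratin genes 1 rose and 2 fell, and 2 rose and 6 fell without E9.5 replicate 4. The part of epithelial cell content in the FGF falls was not tested.

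Of 12 genes of migrating crest and glia, 5 fell and 0 rose, with a median of -0.68, and 6 fell without E9.5 replicate 4. Sox10, the factor of migrating crest and Schwann cell precursors, read 24.5, 6.29, 14.3, 0.359 and 5.56 CPM at E9.5 and 0.136, 0.962, 0.0755, 0.368 and 0.0678 CPM at E10.0. E9.5 replicate 4 was again at the later level, and the other E9.5 libraries were above all of E10.0. Sox10 fell by -2.56 (adjusted p = 0.00062) and by -3.18 without it (adjusted p = 1.63e-06). Cdh19, a cadherin of glial precursors, fell by -2.13 (adjusted p = 1.06e-05), Ret, a receptor tyrosine kinase of autonomic crest, by -1.64 (adjusted p = 0.000136), and Erbb3, the neuregulin receptor of glia, by -0.68 (adjusted p = 0.0443). L1cam, an axonal adhesion molecule, fell by -2.06 (adjusted p = 0.000422). Of 17 ganglion neuron genes 1 fell, Neurog1 (-0.65), and 1 rose, Gap43 (0.46), but 9 fell without E9.5 replicate 4. With any other single library left out the list had 0 falls, and it had 0 rises without E9.5 replicate 2 or 3 or E10.0 replicate 4. Neurod1 was at 5.24, 0.327, 7.62, 0 and 3.47 CPM at E9.5 and at 0.34, 1.51, 0, 0.515 and 0 CPM at E10.0, so that the stages overlapped.

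Of 16 retinoic acid genes 1 rose and 4 fell, among them a pair of breakdown enzymes, and 2 rose and 6 fell without E9.5 replicate 4. Leaving out E9.5 replicate 1, 2 or 5 or E10.0 replicate 2 or 3 gave 0 rises and 2 falls. Cyp26b1, a retinoic acid hydroxylase, read 5.03, 6.37, 4.28, 1.22 and 5.42 CPM at E9.5 and 2.79, 1.10, 1.13, 0.809 and 1.49 CPM at E10.0, and fell by -1.09 (adjusted p = 0.00148). Its paralog Cyp26c1 fell by -1.22 (adjusted p = 0.0205), the binding protein Crabp1 by -0.82 (adjusted p = 0.00273) and the receptor Rarb by -0.62 (adjusted p = 0.0359). The receptor Rarg rose by 0.60 (adjusted p = 0.0245), and the synthesis enzyme Aldh1a2 had a difference of -0.14. Meox1, a homeobox gene of somite and paraxial mesoderm, read 8.69, 8.91, 16.3, 1.01 and 7.64 CPM and then 1.5, 0.962, 0.831, 1.54 and 0.678 CPM, and fell by -1.91 (adjusted p = 0.000163). Of 19 genes of the BMP list 1 rose, 2 fell and 16 did not pass, and 1 rose and 5 fell without E9.5 replicate 4. The falls were in Id1 (-0.56, adjusted p = 0.00571) and Id4 (-0.74, adjusted p = 0.0034), targets of BMP signalling. The receptor Bmpr1b rose by 0.91 (adjusted p = 0.00131).

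Markers of other tissues differed between libraries as well as between stages. Myh7, a heart myosin, had the largest fall that was named, at 18.5, 100.2, 226, 4.81 and 134 CPM at E9.5 and 7.69, 2.61, 3.93, 12.2 and 4.14 CPM at E10.0 (-3.01, adjusted p = 0.00998). The summed heart muscle list was 73.0, 515, 779, 18.5 and 445 CPM at E9.5 and 48.8, 10.6, 41.2, 95.8 and 34.3 CPM at E10.0. Replicates 2, 3 and 5 of E9.5 were high, and replicates 1 and 4 lay near or within E10.0. Of 14 heart genes 5 fell, and 11 without E9.5 replicate 4, with 0 rises; the falls were 1 without E9.5 replicate 2 or 5 or E10.0 replicate 2, 0 without E9.5 replicate 3 and 2 without E10.0 replicate 3 or 5. The part of heart tissue in the dissected pieces in any other fall was not tested. Endothelial genes had 5 falls of 20, 7 without E9.5 replicate 4 and 0 without E9.5 replicate 1 or 2 or E10.0 replicate 2 or 5, among them the receptor Flt1 (-0.72, adjusted p = 0.0167) and the Notch ligand Dll4 (-0.77, adjusted p = 0.0403), while the defining markers Pecam1 (-0.22), Kdr (-0.13) and Cdh5 (-0.58) did not pass. Macrophage genes had 2 rises of 13 (4 without E9.5 replicate 4), Csf1r (1.12, adjusted p = 0.00859) and Cx3cr1 (0.80, adjusted p = 0.0186), both under 4 CPM in all 10 libraries. The 14 red cell and 15 yolk sac genes had 0 calls in both fits, but the yolk sac sum was 315 CPM in E10.0 replicate 4 against 3.47 to 5.58 CPM in the other E10.0 libraries, and 46.5 CPM in E9.5 replicate 3.

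Glycolysis and hypoxia genes fell in 6 of 22 cases, 12 without E9.5 replicate 4, with 0 rises. Slc2a3, a glucose transporter, fell by -0.80 (adjusted p = 0.0297), the phosphofructokinase Pfkp by -0.76 (adjusted p = 0.0105) and lactate dehydrogenase Ldha by -0.44 (adjusted p = 0.0244). The list sum was 26203 CPM in E9.5 replicate 1 and between 13374 and 17569 CPM in the other E9.5 libraries, against 13023 to 15122 CPM at E10.0. Without E9.5 replicate 1, 0 genes of the list passed, and the values were -0.64 for Slc2a3 (adjusted p = 0.163), -0.62 for Pfkp (adjusted p = 0.079) and -0.29 for Ldha (adjusted p = 0.222). Mitochondrially encoded transcripts had 2 rises of 13 (4 without E9.5 replicate 4), mt-Co3 (0.55, adjusted p = 0.0191) and mt-Co1 (0.39, adjusted p = 0.0456). Their sum was 2615 CPM in E9.5 replicate 1 against 3812 to 4906 CPM in the other E9.5 libraries. Without that library neither passed, at 0.36 for mt-Co3 (adjusted p = 0.184) and 0.32 for mt-Co1 (adjusted p = 0.194), and 0 of the 13 passed without E10.0 replicate 2 or 3 either. Cell cycle genes had 0 calls of 27 and ribosomal protein genes 0 of 42; without E9.5 replicate 4 there were 2 rises and 1 fall in the first and 1 rise in the second.

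**Figure D3:**
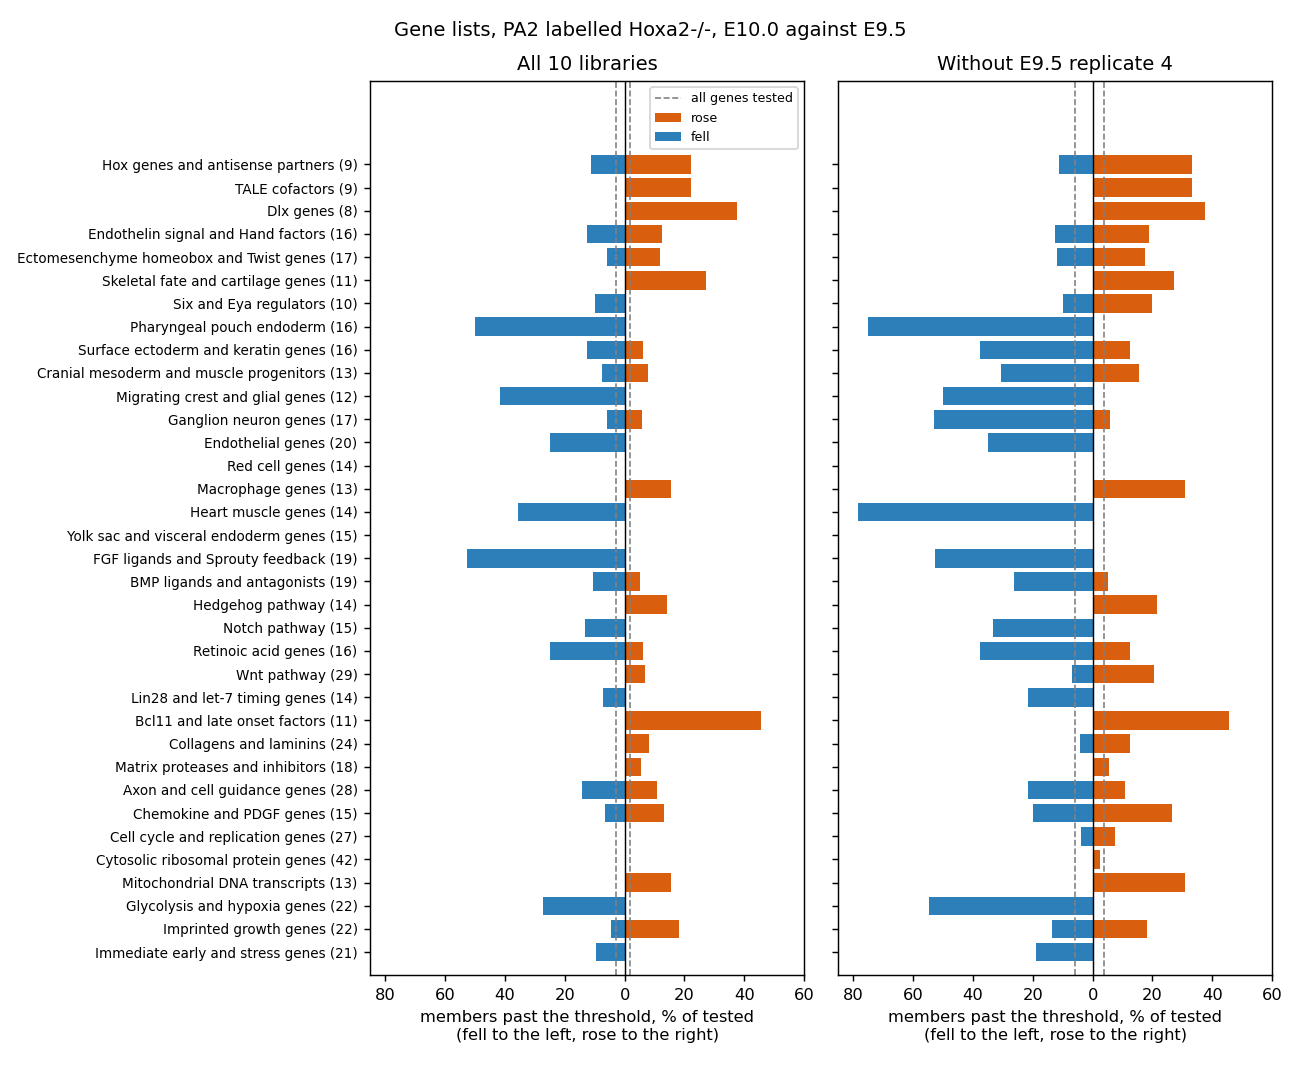
For each gene list (number tested in brackets), the share of tested members that rose (orange, to the right) or fell (blue, to the left), with all 10 libraries on the left and without E9.5 replicate 4 on the right; dashed lines are the shares over all genes tested, 1.74% and 2.83% on the left. FGF genes (10 of 19) and pouch endoderm genes (8 of 16) have the largest shares of falls on the left, and the late onset factors (5 of 11) the largest share of rises.

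PA1 and PA2 of the same embryos went through the same step, which allows the change itself to be compared between the arches. In PA1, 811 genes were called (4.4%), 345 that rose (1.87%) and 466 that fell (2.53%), and from 375 to 1711 as each PA1 library was left out, the highest without replicate 4 of E9.5. The change differed between the arches in 17 genes (0.0923%), of which 2 were higher (0.0109%) and 15 lower (0.0814%) in PA2 relative to PA1. Without both arches of E9.5 embryo 4 the count was 73 (0.396%), 19 higher (0.103%) and 54 lower (0.293%), and with the embryo as a block as well it was 220 (1.19%), 114 higher (0.619%) and 106 lower (0.575%). These fits without embryo 4 were added after the data were seen. The replicate numbers pair PA1 with PA2: deviations of the arches of 1 embryo correlated above 0.1 in 10 of 10 embryos. With that block and all embryos limma called 0 genes (1445 at an unadjusted p under 0.05), and 0 were called by limma on these 4 groups alone (754 unadjusted) and by edgeR (733 unadjusted), against 16 by DESeq2. As each of the 20 libraries was left out, the count stayed between 12 and 16 for PA1 E9.5 replicate 5, PA1 E10.0 replicate 1 and PA2 E10.0 replicates 1, 2 and 5, was 31 and 53 without the PA1 or the PA2 library of E9.5 embryo 4, and was 5 to 11 for the others. The 10 genes of lowest p all passed with the block once embryo 4 was left out. By edgeR without that embryo 5 of them passed. With all embryos 4 passed by DESeq2 and 2 by limma with a pseudocount of 0.25.

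Of those 17 genes, 5 moved in PA2. Hmx1 and Hoxaas2 rose there as given above. Fgf4 was at 0.34 CPM or less in every PA1 library of both stages, and its change differed by -1.85 (adjusted p = 0.0473). Fgf8, by contrast, was well expressed in PA1, at 17.2 to 30.4 CPM at E9.5 and 25.9 to 38.6 CPM at E10.0, and its difference of 0.34 did not pass. Its change differed between the arches by -1.28 (adjusted p = 0.0266). Meox1 was under 1 CPM in all PA1 libraries used and differed by -2.06 (adjusted p = 0.0476). The limma fit with the embryo block and without E9.5 embryo 4 was added after the data were seen, and it called further genes outside the 17. In it Dlx3 (1.73, adjusted p = 0.000734), Dlx4 (1.89, adjusted p = 0.000348), Barx1 (2.1, adjusted p = 0.00474), Col9a1 (0.98, adjusted p = 0.000734) and Hoxa2 (0.86, adjusted p = 0.00285) changed more upward in PA2. Sox10 (-2.36, adjusted p = 0.00711) and Ret (-1.83, adjusted p = 0.0117) changed more downward. In the same fit the differences between the arches for Bcl11a (0.35) and Edn1 (0.17) did not pass.

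The other 12 genes rose in PA1 and did not pass in PA2. Lhx6, a LIM homeobox gene of oral mesenchyme, went from between 2.24 and 16.1 CPM to between 16.1 and 29.3 CPM in PA1. In PA2 it read 2.14, 4.25, 1.96, 4.53 and 3.13 CPM at E9.5 and 4.83, 4.54, 4.83, 3.16 and 4 CPM at E10.0. Tbx22, a T-box gene of the palate, stayed at 0.278 CPM or less in PA2, which is near the level of 3 reads, and reached 2.27 to 7.22 CPM in PA1 at E10.0. Among the rest were Slitrk6, AI606473, Enpp2, Chrna6, Tmem59l, Zmat4, E130114P18Rik, Gm43376 and Etv1.

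**Figure D4:**
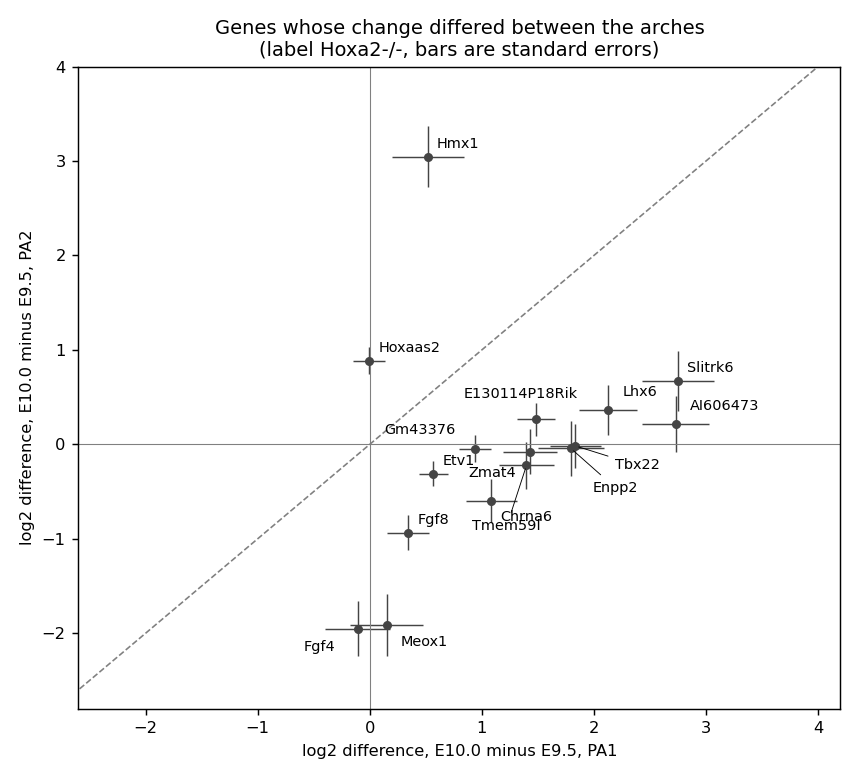
Of the genes whose change from E9.5 to E10.0 differed between the arches, 16 are drawn, with the PA1 difference across and the PA2 difference up, on the log2(CPM + 1) scale, bars giving standard errors and the dashed line equal change. Hmx1 (3.04 in PA2, 0.52 in PA1) lies far above the line, and Fgf4 and Meox1 far below it.

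The steps on either side share libraries with this one, so their values are set side by side only. From E9.0 to E9.5, 3119 genes were called in PA2 (16.9%), 1840 that rose (9.98%) and 1279 that fell (6.94%), with 931 without E9.0 replicate 3, 1664 without E9.5 replicate 4 and 5 with those 2 groups alone, and from E10.0 to E10.5, 44 were (0.239%), 17 that rose (0.0923%) and 27 that fell (0.147%), with 4 without E10.5 replicate 1, 24 without E10.5 replicate 3, 12 without E10.0 replicate 1 or 5 and 70 without E10.0 replicate 2. Hmx1 was at 0.0821 to 0.597 CPM at E9.0 and 17.5 to 25.0 CPM at E10.5. Barx1 rose in the earlier step too (3.28, adjusted p = 1.45e-05; 2.72 without E9.5 replicate 4, adjusted p = 0.000309), was at 1.14 to 6.74 CPM at E9.0 and stood at 167 to 184 CPM at E10.5, no higher than at E10.0. Bcl11a was at 0.170 to 0.411 CPM at E9.0 and 34.3 to 58.1 CPM at E10.5. Gsc continued to rise, to 5.36 to 12.8 CPM at E10.5 (1.44 over E10.0 to E10.5, adjusted p = 0.0158), and Edn1 continued to fall, from 30.8 to 39.8 CPM at E9.0 to between 2.44 and 5.92 CPM at E10.5 (-1.54 over E10.0 to E10.5, adjusted p = 0.00119). Fgf4, at 10.9 to 26.0 CPM at E9.0, had a difference of -0.46 in the earlier step, or -0.06 without E9.5 replicate 4, and -0.32 in the later one, none past the test.

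Adjacent genes were called in the same direction more often than the share over all genes. Of 319 rising genes with a position, 41 (12.9%) had a rising gene next to them among the genes tested, beside 3.4% of all genes tested, and of 522 falling genes 52 (9.96%) had a falling neighbour, beside 5.6%. Without E9.5 replicate 4 the shares were 14.9% of rising genes beside 7.12% and 18.9% of falling genes beside 11.2%. Pairs that rose included Dlx3 and Dlx4 on chromosome 11, Ndn and Magel2 on chromosome 7 and Hoxa2 and Hoxaas2 on chromosome 6; pairs that fell included Fgf3 and Fgf4 on chromosome 7, Myh6 and Myh7 on chromosome 14 and Cldn6 and Cldn9 on chromosome 17. Of the rising pairs 4 of 22 had overlapping annotations, as did 2 of 27 falling pairs. Myh6 and Myh7 have highly similar sequences, so the split of reads between them is uncertain.

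RefSeq promoters, from 250 bases before the start to 50 after it, were matched for 212 rising, 368 falling and 11361 of all tested genes. TATAAA, on either strand, was in 13.7% of rising and 11.4% of falling promoters and in 7.28% of all. GGGCGG was in 50.9% of rising, 63.6% of falling and 63.4% of all promoters, and CCAAT in 42.9%, 31.0% and 38.8%. CTGTCA, a core that TALE proteins bind, was in 16.0% of rising, 19% of falling and 16.5% of all promoters. TGATNNAT, a core of Hox and Pbx pairs, was in 6.6% of rising, 5.98% of falling and 4.22% of all. Without E9.5 replicate 4, TATAAA was in 10% of 450 rising and 11% of 765 falling promoters, and GGGCGG in 58.7% and 64.8%. These shares describe letters in the windows and no test was made of them.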

How the data were processed

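Gene expression was measured by RNA sequencing of 68 arch libraries. Per the submitters' processing notes, bcl2fastq 2.18, TopHat2 2.1.1, R 3.3.2 and the mm10 build were used, with no roles given. The counting program, annotation and strandedness are not given in the sources used here. The deposited table holds a normalised signal per gene for 21948 genes. Its values behave as CPM divided by TMM factors, which were 0.951 to 1.08 over all 68 libraries. Read counts worked back from them were whole numbers in 100.0% of cases, within 0.01 reads (largest distance 9.2e-05). All columns were matched to a sample.

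Genes with at least 1 CPM in at least 3 of all libraries (18428) were fitted with limma 3.58.1 in R 4.3.3, trended prior variance, on log2(CPM + 1), with 1 mean for each of 16 groups over all 68 libraries, two-sided tests and Benjamini-Hochberg adjustment at 0.05. Recovered reads (12226679 to 14732948 per library) were tested with edgeR 4.0.16 (quasi-likelihood) and DESeq2 1.42.0 as alternatives; edgeR called 864 genes. The fit and tests were checked on simulated data. Reads carry no molecular identifiers, so depth bounds counting error only.

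PA1 and PA2 with the same number, read as 1 embryo from the deposited design text, deviated together (median r 0.37 over 10 pairs, against -0.13 over 40 other pairs). E9.5 and E10.0 numbers did not (0 of 5 pairs above 0.1). Named genes were the 15 largest changes in each direction with a mean of at least 5 CPM and a proper gene symbol, up to 4 called members of each of 35 lists (the most abundant where none passed), Hoxa2, and the 10 lowest p between arches; other list members named here were picked after their values were seen. Members and lists were chosen with earlier results of these data known. Symbols and positions are from GENCODE M21 on GRCm38, which matched 21921 genes. Results for some genes are not reported here.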

Additional observations from a re-analysis of the deposited data

Results flagged for a closer look

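Single libraries lay far from the other 4 of their group in several genes, by a gap rule that flags about 1 in 20 groups by chance. In 19 of the genes reported here the library was E9.5 replicate 4. Among the rising genes its levels were 8.84 CPM for Hmx1, 17.6 for Dlx4os, 13.1 for Bcl11a, 67.0 for Magel2, 10.7 for Col8a2, 10.9 for Bcl11b, 228 for Barx1, 13 for Dlx4, 13.1 for Twist2, 7.83 for Kremen2, 57.3 for Ddr2, 106 for Dlx6os1, 102 for Hoxa2, 108 for Dlx3, 131 for Prrx1, 151 for Col9a1, 9.27 for Ebf3 and 47.1 for Bmpr1b, each above the other 4 E9.5 libraries. Eya2, at 16.5 CPM there, was below the other 4 (33.2 to 39.7 CPM). The summed Hox, Dlx and late onset lists stood apart in the same library, at 130, 504 and 230 CPM. The cause was not tested.

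Other libraries stood apart in fewer genes. E10.0 replicate 4 had 127 CPM of Afp, 315 CPM of the yolk sac list, 6.25 CPM of Myl7, 6.69 CPM of Myh6 and 32.7 CPM of Mef2c. E10.0 replicate 2 was high in Bcl11b (22.8 CPM) and Foxd1 (12.5 CPM), E10.0 replicate 1 was high in Ret (2.79 CPM) and E10.0 replicate 3 was low in Eya2 (15 CPM). E9.5 replicate 3 was high in Tdgf1 (20 CPM), Afp (9.43 CPM) and the yolk sac list (46.5 CPM). E9.5 replicate 1 was high in Mcm6 (791 CPM) and low in the summed guidance list (1063 CPM against 1202 to 1255 CPM).

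The change from E9.5 to E10.0 differed between PA2 and PA1 in 17 genes by limma's adjusted p, of which 16 are given. The PA2 change minus the PA1 change was 2.53 for Hmx1 and 0.89 for Hoxaas2. It was -2.51 for AI606473, -2.07 for Slitrk6, -2.06 for Meox1, -1.85 for Tbx22, -1.85 for Fgf4, -1.84 for Enpp2, -1.76 for Lhx6, -1.68 for Chrna6, -1.62 for Tmem59l, -1.51 for Zmat4, -1.28 for Fgf8, -1.22 for E130114P18Rik, -0.98 for Gm43376 and -0.88 for Etv1.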

How the results depend on the processing

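Of 118 called genes from the lists and the naming rule, 0 had the other sign in any of 23 other fits of the stage comparison that tested them, and none of the 10 genes of lowest p between the arches reversed. These genes were picked by their calls in the same libraries. A change of filter leaves each difference as it was, so a reversal was unlikely from the start. Alternatives for the earlier and later steps were run for their counts and not followed gene by gene, apart from Barx1 and Fgf4 without E9.5 replicate 4. The count of genes changed in PA2 (843) was 779 to 994 by edgeR, by DESeq2, with sex as a covariate, with median-of-ratios scaling, with no filter or one of 5 CPM, and with a pseudocount of 0.25 or 5. It was 141 (60 rose, 81 fell) with the 2 groups alone and 102 (35 and 67) with the replicate block, whose numbers join different embryos here. Alternatives added after seeing the data gave 1548 (583 and 965) without number 4 of both stages, 1983 (836 and 1147) with the 2 groups alone without E9.5 embryo 4, and 1656 (556 and 1100) by edgeR without it. Leaving out 1 library at a time gave 405 to 1756 (161 to 681 rose, 230 to 1075 fell).

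The 17 genes that differed between the arches became 2 with a pseudocount of 0.25 and 0 with the groups compared alone, with the replicate block of embryo and by edgeR. Fits without both arches of E9.5 embryo 4 were added after seeing the data. In these the count was 73, with the block 220, with the groups alone 96 and by edgeR 51. Leaving out 1 library gave 5 to 53. PA1 gave 89 genes with its groups alone, 1 with the block, 1791 without embryo 4 (also added) and 375 to 1711 leaving out 1 library. E9.0 to E9.5 gave 5 with its groups alone, 0 with the block (1930 unadjusted) and 931 to 4295 leaving out 1 library. E10.0 to E10.5 gave 22, 0 (2675 unadjusted) and 4 to 70. The cause of these shifts was not tested. Levels under the 3-read level of about 0.2 CPM are limited by depth.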

Other observations

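Guidance and growth factor genes not described above also moved. Of 28 axon and cell guidance genes 3 rose and 4 fell, and 3 rose and 6 fell without E9.5 replicate 4. Sema3a, a secreted repellent, read 49.9, 74.8, 70.1, 151 and 95.6 CPM at E9.5 and 140, 160, 159, 155 and 174 CPM at E10.0, and rose by 0.92 (adjusted p = 0.000422). E9.5 replicate 4 was again the only E9.5 library inside the later range. The ephrin receptor Epha3 rose by 1.12 (adjusted p = 0.0413), while the semaphorin co-receptor Plxna4 fell by -1.19 (adjusted p = 0.0255) and the ligand Slit1 by -0.91 (adjusted p = 0.0383). Pdgfc, a ligand of the PDGF receptors, rose by 0.83 (adjusted p = 0.00194), and Kit, the receptor of melanoblasts and germ cells, fell by -0.52 (adjusted p = 0.0308). Of 21 immediate early and stress genes 2 fell and 0 rose, Atf3 by -0.97 (adjusted p = 0.00194) and Junb by -0.78 (adjusted p = 0.00571), and 4 fell without E9.5 replicate 4.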
